A study of Mus musculus with 3 samples.

Results

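Polycomb repressive complex 2 (PRC2) was described here through 10 genes, chosen by symbol: Ezh2, Ezh1, Eed, Suz12, Rbbp4, Rbbp7, Phf1, Mtf2, Phf19 and Jarid2. All 10 were found among the 22976 genes of the deposited count table, and all 10 were among the 13705 genes that passed the filter on low counts. The study sequenced polyadenylated RNA of NSC-34, a mouse hybrid line derived from a neuroblastoma and from embryonic spinal cord rich in motor neurons. Its comparison was of cells that had survived PR20 with untreated cells, PR20 being a proline-arginine dipeptide repeat of the kind made from the C9orf72 repeat expansion in amyotrophic lateral sclerosis. The first group held 2 libraries, each of 1 clone with a WT genotype that was spontaneously resistant to PR20, after 10 µM PR20 for 3 weeks (clone 1 and clone 2). The other group held 1 library of WT NSC-34 cells whose treatment label is none (control). The protocol text, the same for all 3 libraries, names PR20 for the control too, and the control was taken as untreated from its own treatment label. All cells were grown on gelatin in high-glucose DMEM with serum. The labels do not say whether the clones were isolated from separate cultures, and the control had no replicate, so each p-value rests on the spread between these 2 clone libraries, which may be technical.

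The clones had 11389663 and 11307034 counts and the control had 11700755, so that 3 counts corresponded to 0.263 and 0.265 CPM, or counts scaled to a common library total, in the clones and to 0.256 CPM in the control. Levels below are CPM with TMM scaling, a between-library scaling of the totals, unless a sentence gives TPM, in which counts were also divided by the summed exon length of the gene. Of the motor neuron markers, Chat had 0 and 0 counts in the clones and 7 in the control. Lhx3 had 0 and 0 counts in the clones and 1 in the control. Mnx1 had 1 and 3 counts in the clones and 1 in the control. Chat, Lhx3 and Mnx1 were not tested and were near 0 in the untreated line too. For tested genes, rose, fell and called refer to the edgeR quasi-likelihood test at an adjusted p under 0.05. By that test 24.3% of all genes tested were higher in the clones and 25.8% lower. The 2 tested motor neuron markers fell: Slc18a3 had 3 and 1 counts in the clones and 113 in the control, and Isl1 had 23 and 17 counts in the clones and 72 in the control. Sums of marker lists are over their tested genes, and these 2 summed to 2.32 and 1.62 CPM in the clones and 15.4 CPM in the control. All 7 sympathetic neuroblastoma markers fell, with sums of 597 and 523 CPM in the clones and 1021 CPM in the control. Hand2 and Phox2a made up most of each sum, with log2 fold changes of -0.32 and -0.36. Those of Th and Dbh were -3.91 and -5.02. Of 6 tested neuronal markers 5 fell, and all 6 summed to 1220 and 1175 CPM in the clones and 2237 CPM in the control. Prph, the one not called, made up most of the clones' sums. It had 940 and 900 CPM in the clones and 864 CPM in the control. The 4 tested fibroblast markers summed to 67.0 and 84.0 CPM in the clones and 73.6 CPM in the control, and 0 of them rose and 1 fell; Lum, not tested, had 3 and 3 counts in the clones and 1 in the control. The 3 tested glial markers summed to 6.06 and 5.21 CPM in the clones and 7.49 CPM in the control, and 0 were called. Sox10 and S100b, not tested, had no count in the control. In the clones Sox10 had 3 and 8 counts and S100b had 1 and 3 counts. Cd68, the 1 tested immune marker, had 0.891 and 1.08 CPM in the clones and 0.666 CPM in the control, and the 2 tested endothelial markers, Kdr and Pecam1, summed to 15.1 and 16.9 CPM in the clones and 30.9 CPM in the control. Both endothelial genes fell in the clones, and Cd68 was not called. In bulk RNA, fewer cells of a type and less RNA per cell cannot be told apart.

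PRC2 is the enzyme complex that methylates histone H3 at lysine K27, a mark of silenced developmental genes. Its catalytic subunit is EZH2 or EZH1, which works only when bound to EED, the reader of the mark, and to SUZ12, the scaffold, together with RBBP4 or RBBP7, paralogous WD40 proteins that bind histones. Accessory subunits define alternative forms: a Polycomb-like protein (PHF1, MTF2 or PHF19), or JARID2 with AEBP2. EZH2 and EED are known in mammalian cells as E2F targets with high levels in dividing cells, while EZH1 is typical of cells that have stopped dividing.

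In the resistant clones 3 members rose, 2 fell and 5 did not pass the test, the edgeR quasi-likelihood test with an adjusted p under 0.05 over all 13705 genes. The 3 that rose were Ezh2, Eed and Suz12, the catalytic and structural core, and the 2 that fell were Rbbp7 and Jarid2. Ezh1, Rbbp4 and the 3 Polycomb-like genes were not called. These 5 of 10 members are close to the 50.1% called over all genes (24.3% higher and 25.8% lower), so the number of members called is not a result about PRC2. The median log2 fold change was 0.09 over the members and 0.0021 over all genes tested. Both clones lay above the control for 4 members and below it for 3, and the control lay between the clones for 3. Over all genes tested, 88.5% had both clones on the same side of the control.

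**Figure D1:**
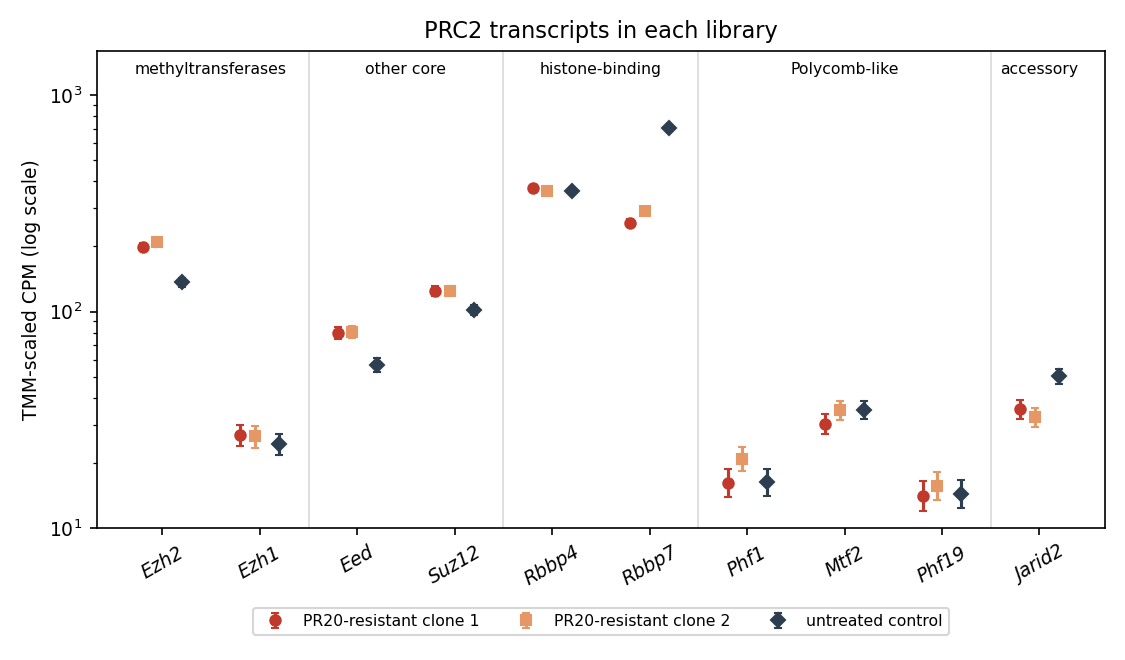
Level of each PRC2 gene in CPM (log axis) in clone 1, clone 2 and the control; points are single libraries and bars are 95% exact Poisson intervals, which cover counting error only. Rbbp7 was at 257 and 290.1 CPM in the clones and 706 CPM in the control, while the clones' points for Ezh2, Eed and Suz12 lie above the control's.

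The same direction was seen for each called gene in both clones. On the TPM scale, which allows levels of different genes to be set side by side, Rbbp7 had the highest level in every library, with 292 and 327 TPM in the clones and 835 TPM in the control. Rbbp4 was next, with 140.1 and 135 TPM in the clones and 142 TPM in the control. Phf19 was the lowest of the 10 in every library, at 9.21 and 10.2 TPM in the clones and 9.83 TPM in the control. The core genes lay between these: Ezh2, Suz12 and Eed were at 98.5, 83.3 and 68.7 TPM in clone 1 and at 103, 82.7 and 68.9 TPM in clone 2, against 70.2, 70.7 and 51.1 TPM in the control. Ezh2 and Suz12 had nearly equal TPM in the control, with an Ezh2 to Suz12 ratio per length of 1.18 and 1.24 in the clones and 0.993 in the control.

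**Figure D2:**
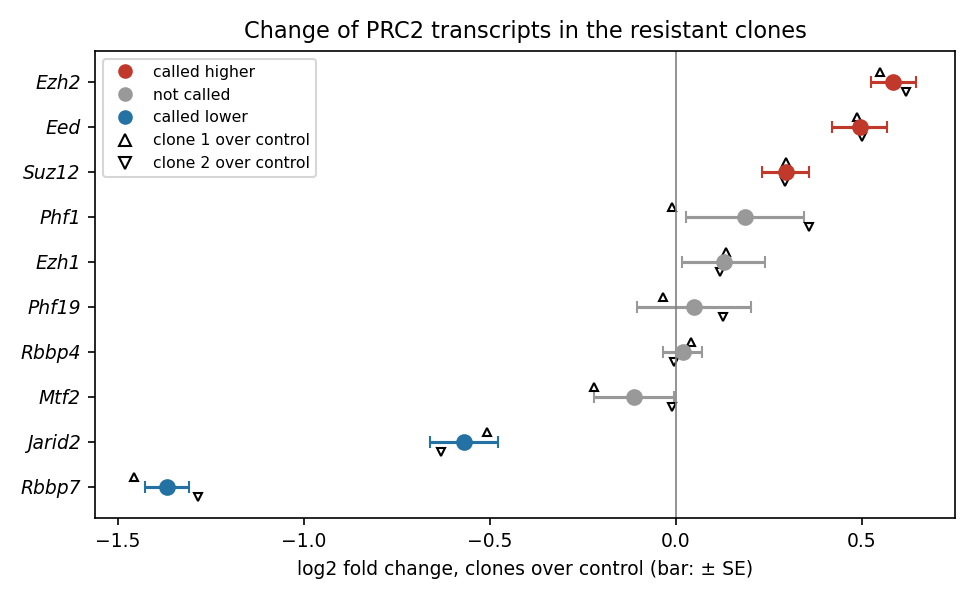
Log2 fold change of each PRC2 gene, clones over control, with bars of 1 SE; triangles give each clone alone, and colour marks genes called higher, lower or not called. The members run from -1.37 for Rbbp7 to 0.59 for Ezh2.

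Ezh2, the methyltransferase of dividing cells (chromosome 6, 47530139 to 47595341, minus strand, GRCm38), had 2240 and 2332 counts in the clones and 1638 in the control. Scaled, these were 199.5 and 209.6 CPM in the clones and 136 CPM in the control. Both clones lay above the control, and their 95% counting intervals, 191 to 208 CPM in clone 1 and 201 to 218 CPM in clone 2, did not reach that of the control, 130 to 143 CPM. Ezh2 rose by 50.1%, or by 0.59 ± 0.06 on the log2 scale (SE; edgeR quasi-likelihood test, adjusted p = 7.61e-07). Of all genes tested, 88.9% had a lower log2 fold change. Ezh1, its paralog of resting cells (chromosome 11, 101191115 to 101226463, minus strand), had 26.8 and 26.5 CPM in the clones and 24.4 CPM in the control. The log2 fold change of Ezh1 was 0.13 ± 0.11 (SE; edgeR adjusted p = 0.360), with a 95% interval (normal approximation) of -0.09 to 0.35.

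Of the reads of the methyltransferase pair, Ezh2 took 88.2% in clone 1 (95% Wilson interval 86.8 to 89.4) and 88.8% in clone 2 (87.5 to 89.9), against 84.8% in the control (83.2 to 86.4). The intervals of the clones overlapped each other and lay above that of the control. They cover counting error only, and without molecular identifiers the reads cannot be taken as separate molecules. Per length, the ratio of Ezh2 to Ezh1 was 8.29 and 8.81 in the clones and 6.23 in the control.

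Eed, which reads the H3K27 mark (chromosome 7, 89954654 to 89980983, minus strand), had 895 and 895 counts in the clones and 683 in the control, or 79.7 and 80.5 CPM in the clones and 56.8 CPM in the control. The clones were close to each other, and the control was lower than both. Eed rose 1.41-fold, or by 0.49 ± 0.07 on the log2 scale (SE; edgeR adjusted p = 3.86e-05). Suz12, the scaffold (chromosome 11, 79993106 to 80034123, plus strand), had 125 and 125 CPM in the clones, from 1403 and 1388 counts, and 102 CPM in the control, from 1222 counts. Again the clones were close to each other and above the control. Its log2 fold change was the smallest of the called members, 0.30 ± 0.06 (SE; edgeR adjusted p = 0.000965), or 1.23-fold. The call for Suz12 depended on the test: the gene was not called by DESeq2, nor with a preset variation of 10% between libraries, nor in the authors' deposited table, where its log2 fold change was 0.29 with an adjusted p of 0.119.

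The authors' deposited table called 19.8% of its genes at an adjusted p under 0.05, a DESeq2 result, and 4 members were among them. In the authors' deposited table the log2 fold change was 0.58 for Ezh2, 0.48 for Eed, -0.58 for Jarid2 and -1.38 for Rbbp7. With a preset variation of 10%, which called 26.4% of all genes, the same 4 members passed. With 20%, which called 8.38% of all genes, Rbbp7 was the member that passed. Together Ezh2, Eed and Suz12 summed to 404 and 415 CPM in the clones and 295 CPM in the control.

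The start regions of these 3 core genes are printed because the genes moved together, and those of Rbbp4 and Rbbp7 because this paralogous pair did not. Each window runs from 250 bases before to 50 bases after the gene's start, 5′ to 3′ on the gene's strand, from RefSeq on GRCm38.p6: Ezh2 at chr6:47594981-47595280 (minus), Eed at chr7:89980927-89981226 (minus), Suz12 at chr11:79992856-79993155 (plus), Rbbp4 at chr4:129335321-129335620 (minus) and Rbbp7 at chrX:162760122-162760421 (plus). Capitals mark CCAAT boxes (CCAAT, the motif of NF-Y) and E2F-type motifs (TTTCCCGC, TTTGGCGC, TTTCGCGC or TTTGCCGC), both searched on either strand.
Ezh2: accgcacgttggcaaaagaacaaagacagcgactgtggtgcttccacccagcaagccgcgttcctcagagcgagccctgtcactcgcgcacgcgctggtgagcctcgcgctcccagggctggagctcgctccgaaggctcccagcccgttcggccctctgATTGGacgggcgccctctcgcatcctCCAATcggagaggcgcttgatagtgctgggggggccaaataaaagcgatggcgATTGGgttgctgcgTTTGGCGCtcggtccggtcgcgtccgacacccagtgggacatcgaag
Eed: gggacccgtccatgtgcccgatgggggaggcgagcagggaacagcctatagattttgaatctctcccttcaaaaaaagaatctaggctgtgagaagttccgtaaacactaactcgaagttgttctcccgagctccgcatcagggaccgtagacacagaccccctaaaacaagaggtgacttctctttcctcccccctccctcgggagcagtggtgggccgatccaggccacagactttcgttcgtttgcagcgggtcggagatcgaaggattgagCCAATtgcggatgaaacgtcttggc
Suz12: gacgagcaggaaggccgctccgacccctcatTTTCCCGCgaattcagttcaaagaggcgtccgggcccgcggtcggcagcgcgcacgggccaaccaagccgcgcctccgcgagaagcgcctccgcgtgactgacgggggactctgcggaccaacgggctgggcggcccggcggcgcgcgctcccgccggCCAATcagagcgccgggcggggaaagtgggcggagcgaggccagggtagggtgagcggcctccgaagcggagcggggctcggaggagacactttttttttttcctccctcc
Rbbp4: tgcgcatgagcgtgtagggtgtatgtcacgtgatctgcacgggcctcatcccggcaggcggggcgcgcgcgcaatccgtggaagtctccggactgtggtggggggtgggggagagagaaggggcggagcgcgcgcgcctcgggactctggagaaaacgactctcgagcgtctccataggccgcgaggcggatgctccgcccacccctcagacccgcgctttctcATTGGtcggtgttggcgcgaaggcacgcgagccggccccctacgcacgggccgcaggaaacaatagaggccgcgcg
Rbbp7: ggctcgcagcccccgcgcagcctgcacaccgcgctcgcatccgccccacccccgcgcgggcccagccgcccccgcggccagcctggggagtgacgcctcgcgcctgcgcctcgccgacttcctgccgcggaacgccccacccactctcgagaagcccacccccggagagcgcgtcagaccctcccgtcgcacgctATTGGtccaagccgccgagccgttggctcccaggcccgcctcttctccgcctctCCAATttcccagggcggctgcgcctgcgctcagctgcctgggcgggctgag
Windows were found for all 10 members, with 2 windows each for Mtf2 and Jarid2. An E2F-type motif was in the windows of 3 of 10 members (Ezh2, Suz12 and Phf19), against 2.26% of all 32851 promoter windows of this length. That share was not matched for CpG content, although each E2F-type motif holds a CpG. The windows of Ezh2, Suz12 and Phf19 had 31, 41 and 38 CpG, against a median of 7 over all windows. Of those 3, Ezh2 and Suz12 rose and Phf19 was not called, while Eed rose and had no such match. A CCAAT box was in 7 of 10 members, against 37.4% of all windows, and Ezh2 had 3 of them. These 7 were Ezh2, Eed, Suz12, Rbbp4, Rbbp7, Mtf2 and Jarid2, so genes with a CCAAT box were among those that rose, those that fell and those not called. The NRF1-type motif GCATGCGC, searched on both strands, was in 0 of 10 members and in 2.71% of all windows. Matches of different motifs did not overlap. CpG dinucleotides numbered 31 for Ezh2, 17 for Eed, 41 for Suz12, 39 for Rbbp4 and 38 for Rbbp7, against a median of 7 over all windows (quartiles 3 and 20).

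Rbbp7 showed the largest change of the 10 genes. RBBP7 binds histones as a subunit of PRC2 and of several other chromatin complexes, and its gene (chromosome X, 162760402 to 162779092, plus strand) had 2891 and 3227 counts in the clones and 8488 in the control. The levels were 257 and 290.1 CPM in the clones (274 ± 23.0, mean ± SD, n = 2) and 706 CPM in the control. Both clones were far below the control, and clone 2 was above clone 1. Rbbp7 fell by 1.37 on the log2 scale (SE 0.06; edgeR adjusted p = 3.24e-11), so that the control was 2.58-fold higher than the clones. A more negative log2 fold change was found for 6.91% of all genes tested.

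Rbbp4, the paralog (chromosome 4, 129307100 to 129335370, minus strand), had 372 and 359.7 CPM in the clones and 361 CPM in the control, with the control between the clones. Its log2 fold change was 0.02 ± 0.05 (SE; edgeR adjusted p = 0.782), with a 95% interval of -0.08 to 0.12. Of the reads of the pair, Rbbp7 took 40.9% in clone 1 (95% Wilson interval 39.8 to 42.1) and 44.6% in clone 2 (43.5 to 45.8), against 66.2% in the control (65.4 to 67.0). The intervals of all 3 libraries were apart, and the gap between the clones and the control was wider than that between the clones. Per length the Rbbp7 share was 67.6% and 70.8% in the clones and 85.5% in the control, so Rbbp7 kept the higher level of the pair in every library on the TPM scale, whereas by reads Rbbp4 was the higher one in the clones. Summed, the pair had 629 and 649.7 CPM in the clones and 1067 CPM in the control.

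**Figure D3:**
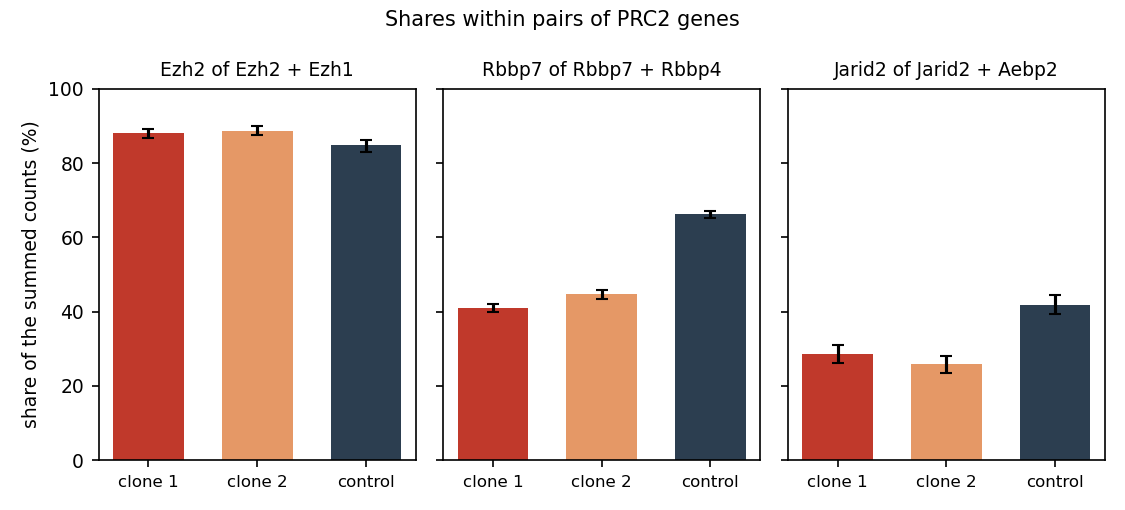
Share of Ezh2, Rbbp7 and Jarid2 in the summed counts of each with its paralog or companion gene (Ezh1, Rbbp4 and Aebp2) in clone 1, clone 2 and the control, in percent, with 95% Wilson intervals. Rbbp7 took 40.9% and 44.6% of the pair's reads in the clones and 66.2% in the control.

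The fall of Rbbp7 was shared by its neighbours on chromosome X. Within 2 Mb of its start 12 other genes were tested, of which 11 fell and 0 rose; the median of their log2 fold changes was -1.45. Within 10 Mb 40 of 48 fell and 1 rose, with a median of -1.36, and 24 of these genes had a lower and 24 a higher log2 fold change than Rbbp7. Farther than 20 Mb away on the same chromosome, 114 of 347 genes fell and 63 rose, with a median of -0.11. The next genes on the distal side were Txlng with a log2 fold change of -1.39, Syap1 with -1.32 and Ctps2 with -1.51, all of which fell by the edgeR test. On the proximal side Gm7331, with 33 and 26 counts in the clones and 35 in the control, was not called.

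**Figure D4:**
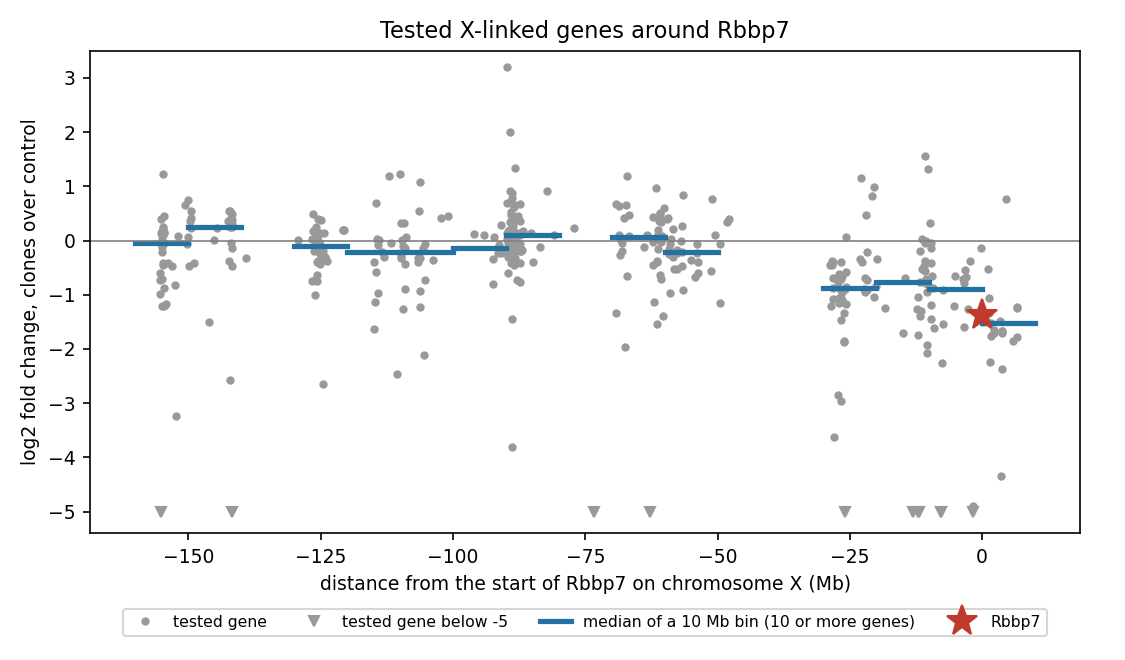
Log2 fold change, clones over control, of tested genes on chromosome X against their distance in Mb from the start of Rbbp7; bars are medians of 10 Mb bins with 10 or more genes, and triangles are genes below -5. In the 0 to 10 Mb bin on the distal side, which includes Rbbp7, 21 of 23 genes fell and the median was -1.52.

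Medians of the 10 Mb bins within 30 Mb on the proximal side of Rbbp7 were -0.89, -0.77 and -0.88, the last of these for the bin farthest away, and the bins farther than 30 Mb away with 10 or more genes had medians between -0.22 and 0.26. Scml2, a Polycomb protein gene of the PRC1 family 1.64 Mb from Rbbp7, had 0 and 0 counts in the clones and 123 counts, or 10.2 CPM, in the control. Taking 3 counts over the pair of clones as the floor, Scml2 was at least 76.3-fold lower in the clones (edgeR adjusted p = 1.68e-08). Farther off on the chromosome, the PRC1 gene Bcor, 151 Mb away, rose by 0.65 on the log2 scale, and Ogt, 61.1 Mb away, rose by 0.36. Hcfc1, 88.8 Mb away, rose by 0.79, and Kdm6a, 145 Mb away, rose by 0.23. Smarca1, 115 Mb away, fell by 1.63, and Bcorl1, with a log2 fold change of 0.02, was not called. Of the exon bases of Rbbp7, 5.98% overlapped Txlng on the opposite strand, and Txlng had 247 and 239 counts in the clones and 683 in the control, against 2891 and 3227 counts of Rbbp7 in the clones and 8488 in the control. Of the 50-base words of Rbbp7, 11.2% also occurred in other genes, most of them in Gm6382. That gene had 5 and 7 counts in the clones and 9 in the control. For Rbbp4 17.2% of such words occurred in other genes, the largest part in Gm26722. Gm26722 had 5 and 10 counts in the clones and 11 in the control. The effect of shared words on the levels of Rbbp4 and Rbbp7 was not tested.

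Medians around the other called members were smaller in size than the members' own changes. Around Ezh2 the median log2 fold change of genes within 10 Mb was -0.08, around Suz12 0.05 and around Jarid2 0.10, against 0.59, 0.30 and -0.57 for the members themselves. Nearer to Ezh2, within 1 Mb, 8 of 18 genes rose and 2 fell, with a median of 0.40. Eed lay on a chromosome whose genes were shifted up: of 1068 other tested genes on chromosome 7, 455 rose and 150 fell, with a median of 0.26, and within 10 Mb of Eed 44 of 112 rose and 21 fell, with a median of 0.21. The log2 fold change of Eed, 0.49, was above that of 67.6% of the genes on its chromosome.

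The Polycomb-like genes, whose proteins direct PRC2 to CpG-rich DNA, did not pass the test. Mtf2 (chromosome 5, 108065674 to 108109004, plus strand) had 30.3 and 35.1 CPM in the clones and 35.3 CPM in the control, and its log2 fold change was -0.11 (SE 0.11; adjusted p = 0.411 by edgeR). Phf1 (chromosome 17, 26933052 to 26937908, plus strand) had 16.2 and 20.9 CPM in the clones and 16.3 CPM in the control, with the control between the clones, and its log2 fold change was 0.19 (SE 0.16; adjusted p = 0.348 by edgeR). Phf19 (chromosome 2, 34893757 to 34914026, minus strand) had 14.1 and 15.7 CPM in the clones and 14.4 CPM in the control, and its log2 fold change was 0.05 (SE 0.15; adjusted p = 0.812 by edgeR). The 95% intervals, -0.32 to 0.10 for Mtf2, -0.12 to 0.50 for Phf1 and -0.25 to 0.35 for Phf19, do not exclude changes of the size seen for Suz12 in at least 1 direction. Within the trio, Mtf2 took 340 of 680 reads in clone 1 (95% Wilson interval 46.3 to 53.7%), 48.9% of the reads in clone 2 (45.4 to 52.3) and 53.5% in the control. The share in the control lay within the interval of clone 1 and above that of clone 2. Mtf2 was the most abundant of the 3 per length in every library, at 17.5 and 20.2 TPM in the clones and 21.3 TPM in the control. Phf1 overlaps Cuta on the opposite strand over 39.3% of its exon bases, and Cuta rose, with 62.6 and 57.0 CPM in the clones and 46.6 CPM in the control (log2 fold change 0.36; edgeR adjusted p = 0.00248). No source used here gives the strand setting of the counting, which leaves the values of Phf1 uncertain.

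Jarid2, the substoichiometric partner that binds PRC2 in place of a Polycomb-like protein (chromosome 13, 44729474 to 44921643, plus strand), had 398 and 362 counts in the clones and 606 in the control. The levels were 35.4 and 32.5 CPM in the clones and 50.4 CPM in the control, so both clones lay below the control. Jarid2 fell by 0.57 on the log2 scale (SE 0.09; edgeR adjusted p = 8.88e-05), with the control 1.48-fold higher than the clones. Aebp2, its companion subunit, moved the other way: it had 88.4 and 93.5 CPM in the clones and 69.8 CPM in the control and rose by 0.38 on the log2 scale (edgeR adjusted p = 0.000352). Of the summed reads of the pair, Jarid2 took 28.6% in clone 1 (26.3 to 31.0) and 25.8% in clone 2 (23.6 to 28.2), against 41.9% in the control (39.4 to 44.5). The intervals of the clones overlapped and lay below that of the control. The ratio of Mtf2 to Jarid2 per length was 1.46 and 1.84 in the clones and 1.19 in the control.

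Over all members, the log2 ratio of clone 2 to clone 1 ran from -0.12 for Jarid2 to 0.37 for Phf1, with a median size of 0.10. Over the 9577 genes with at least 10 CPM in the control the median size was 0.07. Without Rbbp4 and Rbbp7, the other 8 members summed to 527 and 546 CPM in the clones and 436 CPM in the control, whereas all 10 summed to 1156 and 1195 CPM in the clones and 1503 CPM in the control. With 1 library on each side, the difference between the clones has no test.

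Among 7 other tested PRC2 partners, 2 rose and 2 fell, and the median was 0.06 on the log2 scale. Besides Aebp2, Elob rose (0.28), while Eloc fell (-0.59) and so did Lcor (-0.64), a gene whose locus also encodes a PRC2 accessory protein. In canonical PRC1, which binds the mark set by PRC2, 6 of 16 genes rose and 3 fell, with a median of 0.14. Phc2, a polyhomeotic gene, had 208 and 203 CPM in the clones and 141 CPM in the control and rose by 0.54, as did Phc3 (0.54), while the chromodomain genes Cbx6 (-0.27) and Cbx7 (-0.17) fell. In variant PRC1, which ubiquitylates histone H2A, 6 of 18 rose and 2 fell, with a median of 0.02. Bcor had 206 and 208 CPM in the clones and 132 CPM in the control, Mga rose by 0.49 and Wdr5 by 0.42, and Yaf2 fell, with 42.2 and 43.5 CPM in the clones and 76.6 CPM in the control. Pcgf1, the partner of Bcor, fell (-0.63). These 3 lists held 41 tested genes, of which 51.2% were called.

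The lists of genes whose products act on the same residue or oppose the mark each held more genes that rose than fell, where 24.3% of all genes tested were higher and 25.8% lower. The same lean was present over all 12 lists of chromatin and cell cycle regulators, in which 59 of 118 tested genes rose and 16 fell. All 4 tested H3K27 demethylase and acetyltransferase genes rose: Crebbp by 0.43, Ep300 by 0.30, Kdm6b by 0.27 and Kdm6a by 0.23 on the log2 scale. In PR-DUB, the complex that removes the ubiquitin set by PRC1, 8 of 10 rose and 0 fell, with a median of 0.40, led by Hcfc1 (565 and 551 CPM in the clones, 322 CPM in the control) and Mbd6 (0.81). Of 5 genes of H3K36 methyltransferases, whose marks hinder PRC2, 3 rose and 0 fell. Nsd2 had 567 and 571 CPM in the clones and 405 CPM in the control. In the trithorax MLL complexes 8 of 12 rose and 2 fell, with a median of 0.32, among them Kmt2b (0.94) and Cxxc1 (0.88) upward and Dpy30 (-0.44) and Ash2l (-0.27) downward.

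**Figure D5:**
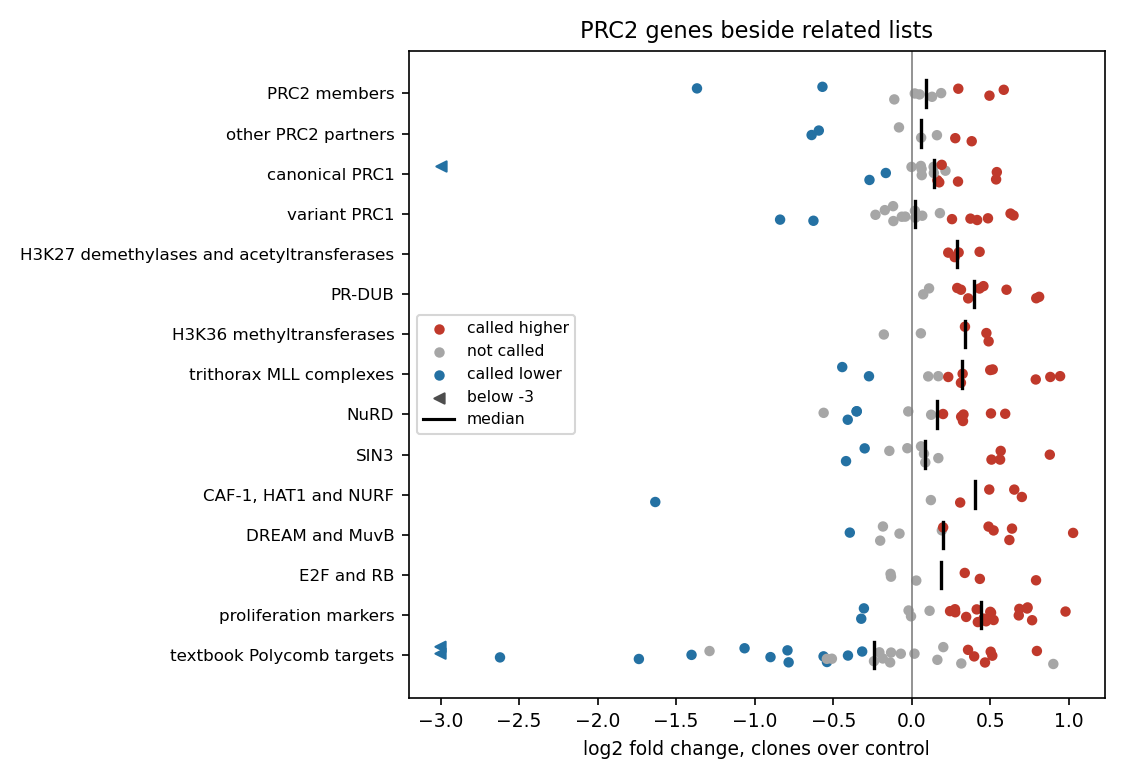
Tested genes of PRC2 and of each related list by their log2 fold change, clones over control; points are genes and bars are list medians, arrowheads are genes below -3, and colour marks genes called higher, lower or not called. The PRC2 median was 0.09 and that of the proliferation markers was 0.44.

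Markers of dividing cells moved in the same direction as Ezh2, Eed and Suz12. Of 22 proliferation markers 17 rose and 2 fell, with a median of 0.44, and they summed to 5479.6 and 5856 CPM in the clones and 4088 CPM in the control. Mki67 had 657 and 730 CPM in the clones and 416 CPM in the control, and Foxm1 rose by 0.98, while Rrm2 (-0.32) and Ccne2 (-0.30) fell. Of the 6 E2F and RB genes 3 rose and 0 fell, with E2f1 at 103 and 111 CPM in the clones and 79.1 CPM in the control. The part of proliferation in the levels of the core genes was not tested.

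Genes that textbooks give as Polycomb targets in embryonic cells were read beside those of the complex. Of 69 listed, 54 had a row and 33 were tested, of which 6 rose and 13 fell, with a median of -0.24. The shares over all genes tested were 24.3% higher and 25.8% lower. Pax5, a B cell factor, had 1.07 and 0.449 CPM in the clones and 27.4 CPM in the control, and fell. In the other direction, Pax6 had 41.2 and 49.0 CPM in the clones and 26.0 CPM in the control, and Cdkn2a, a cell cycle inhibitor gene at a classic Polycomb locus, had 65.1 and 74.2 CPM in the clones and 50.4 CPM in the control, and both rose. In the clones 29 targets reached 1 CPM in both libraries, and in the control 32 did. The criterion had to be met in 2 libraries for the clones and in 1 for the control, so these numbers are not alike. Reads in the control and none in either clone were found for 8 targets, and reads in a clone and none in the control for 6. Any number of reads was enough here, and 2 clone libraries were set against 1 control. No difference between the groups can be read from these counts. No measurement of the H3K27 mark was used here.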

How the data were processed

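Polyadenylated RNA of 3 NSC-34 libraries was sequenced from stranded libraries, per the labels' protocols. STAR 2.5 gave the raw counts that the authors deposited, on GRCm38 and Gencode M16 (Ensembl 91), per the file headers; the submitters' processing notes list DESeq2, bcl2fastq and STAR 2.5.3. The deposited RPM columns hold counts scaled to mapped reads and were used to check totals. The authors' deposited DESeq2 table holds unsigned fold ratios, log2 fold changes with standard errors (a score without fixed range), p-values and adjusted p-values.

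Genes were filtered with filterByExpr (22976 listed, 13705 tested) and tested with edgeR 4.0.16's quasi-likelihood F test (R 4.3.3, two-sided, TMM factors, legacy option off, Benjamini-Hochberg adjustment, threshold 0.05). With 1 control, only the clones gave information on spread (1 residual degree of freedom), which edgeR moderated over all genes. Standard errors (SE) were obtained by dividing the absolute log2 fold change by the square root of F. Alternatives used DESeq2 1.42.0, limma-voom (limma 3.58.1), other scalings, filters, quasi-likelihood methods and preset variation. TPM and positions used Gencode M21, on the same build. Total counts between 11307034 and 11700755 set the precision.

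The members and lists were chosen with earlier results of these data known. All 10 members are named. From each related list up to 4 tested genes with the lowest p were eligible, and up to 2 that moved against the majority of its calls. The values of 1 gene that this rule named are not reported here. Neighbours and overlapping genes were named for their position, and Bcor, Bcorl1, Hcfc1, Kdm6a, Ogt and Smarca1 for the distance on chromosome X.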

Additional observations from a re-analysis of the deposited data

How the results depend on the processing

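Across 13 alternatives with a test, Ezh2, Eed and Jarid2 each passed under 10, Rbbp7 under 11 and Suz12 under 7, and the 5 uncalled members under 0. Their log2 fold changes ran from 0.51 to 0.60 for Ezh2, 0.42 to 0.51 for Eed, 0.22 to 0.31 for Suz12, -0.65 to -0.56 for Jarid2 and -1.44 to -1.36 for Rbbp7. DESeq2, with or without independent filtering, called 1578 genes higher and 1459 lower, and 55 genes of the related lists higher and 16 lower, against 82 and 31 in the reported fit, which called 3332 genes higher and 3533 lower. With a preset variation of 0.1, 1436 genes were higher and 2181 lower (41 and 17 in the related lists); with 0.2, 156 were higher and 992 lower (0 and 6 in the related lists), and of the members 0 were higher and 1 lower. Without a low-count filter edgeR called 0 genes higher and 4 lower, with 0 members and 0 related genes in either direction. With the legacy quasi-likelihood as well, an alternative chosen after seeing the data, edgeR called 0 in every set. At an unadjusted p under 0.05 these fits still had 7086 and 6560 of 22976 genes; the cause was not tested. Leaving out either clone leaves no residual degrees of freedom, so no test was made; the directions of the 5 called members held. No paired analysis was possible because there is 1 control library and its labels give no replicate number. The single control limits every comparison, since its own spread is not known. Genes under the floor of 3 counts in every library could not be compared. For Scml2, with no read in either clone, the fold was given as a bound.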

Other observations

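RBBP4 and RBBP7 also serve other chromatin complexes, whose genes were set beside those of PRC2. In NuRD, a deacetylase and remodelling complex, 6 of 12 tested genes rose and 3 fell, and the median change was 0.16 on the log2 scale. Mta2 had 208 and 211 CPM in the clones and 148 CPM in the control, and Chd4 rose by 0.31, whereas Hdac2 fell (-0.35), with 208 and 226 CPM in the clones and 277 CPM in the control. In the SIN3 complex 4 of 12 rose and 2 fell, with a median of 0.08, led by Sap130 (0.88) and Sin3a (0.51), with Sap30 (-0.42) in the other direction. Of the 6 genes of CAF-1, HAT1 and NURF 4 rose and 1 fell, with a median of 0.40. The chromatin assembly gene Chaf1a had 174 and 170.3 CPM in the clones and 109.5 CPM in the control, and Bptf had 219 and 222 CPM in the clones and 136 CPM in the control. Smarca1, the NURF ATPase gene on chromosome X, fell (-1.63), 115 Mb from Rbbp7. In the DREAM and MuvB list, which holds repressors and activators of cell cycle genes, 6 of 11 rose and 1 fell, with a median of 0.20. Rbl1 had 127 and 123 CPM in the clones and 61.4 CPM in the control. In these 4 lists 65.9% of the 41 tested genes were called, against 50.1% of all genes tested and 63.6% of the 118 genes of all 12 lists of chromatin and cell cycle regulators.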
